A study of Rattus norvegicus and Mus musculus with 9 samples.

Results

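Guidance genes encode the secreted and membrane-bound cues that steer growing axons and migrating cells, and the receptors that read them. Members were all rat and mouse genes with a symbol beginning with Sema, Slit, Robo or Ntn and a digit, or with Plxn or Unc5, together with Nrp1, Nrp2 and Dcc, counting probe sets annotated with a single symbol. The rat table held 38 such genes among 14506, and the mouse table held 49 among 19938. All 38 rat members had a counterpart in the mouse table. The rule also takes in Unc50 and Unc5cl, which share the start of the symbol with the netrin receptors but are not among them. Unc50 is named for a worm gene needed for transport of acetylcholine receptors, and Unc5cl encodes a death domain protein linked to NF-kB signalling.

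Semaphorins are ligands of the plexins. Those of class 3 are secreted and mostly need a neuropilin as co-receptor, whereas the other vertebrate classes are tethered to the membrane. Slit proteins bind Robo receptors, and netrins bind Dcc, neogenin and the Unc5 receptors. Outside the nervous system the same proteins guide vessels, neural crest cells and mesenchyme, and in mouse ES cells netrin-1 is known to act through neogenin and Unc5b.

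Rat embryonic stem (ES) cells of strain DA, cultured in 3I, were measured on 3 arrays. Mouse ES cells of strain C57/BL6, kept in GMEM with 10% FBS and LIF, were measured on 3 arrays of another platform, after removal of their feeder cells. Rat embryonic fibroblasts of strain DA, derived and kept in GMEM with 10% FBS, were measured on 3 arrays. No age, passage or cell line name was given. 3I is a name used for media with inhibitors of FGF receptor, MEK and GSK3. The labels do not say whether feeder cells were removed from the rat ES cultures, nor whether each array had a culture of its own. The p-values here thus set a group difference only against the spread of arrays within the groups. Medium and cell type differed together between the rat groups and cannot be told apart.

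Signals are log2 values, and a gene was called at a Benjamini-Hochberg adjusted p under 0.05 in limma, taken over all 14506 rat genes, with a difference of at least 2-fold. The median signal of all probe sets was 5.71 to 5.73 on rat ES arrays, 4.75 to 4.77 on mouse ES arrays and 5.71 to 5.74 on fibroblast arrays. A group mean under that median was not separated from background here, so folds that rest on it are uncertain in size. All 5 measured ES cell markers were higher in rat ES cells, and 7 of 8 fibroblast markers were lower. The fibroblast markers averaged 6.60, 6.85 and 7.08 on the 3 rat ES arrays, against 10.53, 10.51 and 10.63 on the fibroblast arrays, and 3 of the 8 lay under the array median in rat ES cells. Of 6 endothelial markers, 5 lay under the median in rat ES cells and 6 in fibroblasts. Tie1 was higher in rat ES cells (8.16, against 5.16 in fibroblasts) and Tek was lower (3.97, against 5.27). Of 8 neural markers, 1 was higher and 4 were lower in rat ES cells, and 4 lay under the median there but 2 in fibroblasts. The higher one was Stmn2 (9.33, against 6.23 in fibroblasts). The lower ones had fibroblast means of 9.83 (Ncam1), 8.33 (Map2), 7.53 (Dcx) and 7.06 (Nes). Both measured glial markers lay under the median in both groups. Among 4 blood cell markers, Laptm5 was higher (8.34, against 4.48 in fibroblasts) and Cd14 lower (5.14, against 8.65). The part of such cells in the results below was not tested, and in bulk RNA fewer cells of a type and less RNA per cell cannot be told apart.

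Rat ES cells were first compared with rat fibroblasts. Among the 38 members, 16 were called lower in rat ES cells and 3 higher, which is 42.1% and 7.89%. Over all genes tested, 10.1% were called lower and 10.6% higher, and 20.7% were called in either direction. The decreases took in 5 of 6 class 3 semaphorins, both neuropilins, Slit3, Robo1, Robo2, Unc5b, Unc5c, Plxnb2, Plxnd1, Sema7a and Sema4g. The increases were in Ntn1, Sema4f and Unc5cl. Without Unc50 and Unc5cl, 16 of 36 were called lower and 2 higher. The median log2 difference over all 38 was -0.17 and over all genes it was -0.00. It depended on which members were counted, and was -0.45 without Unc50 and Unc5cl. It was -1.07 with a filter at the 25th percentile of mean level and -1.82 with a filter at the median. These filters used the mean over both rat groups, so a member could pass through a high fibroblast level alone. No median over all genes was taken with them, and they are not read as a stronger decrease. The other 19 members were not called. The groups' arrays did not overlap in 27 of the 38 members, against 61.5% of all genes. An adjusted p under 0.05, whatever the fold, was reached by 27 members, against 56.3% of all genes.

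**Figure D1:**
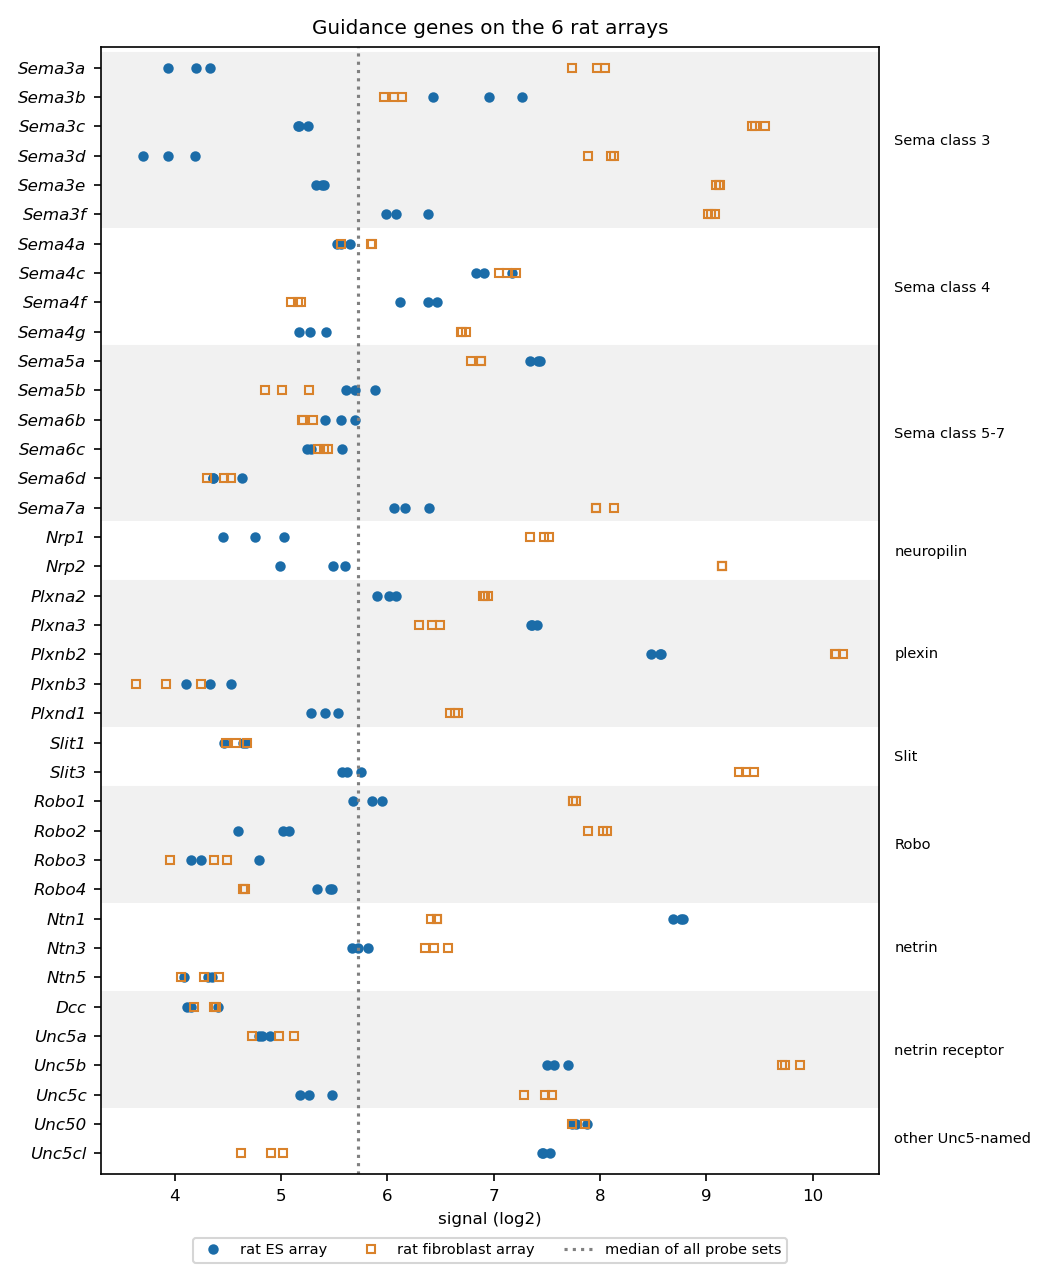
Signal (log2) of the 38 guidance genes on each of 3 rat ES arrays (filled circles) and 3 rat fibroblast arrays (open squares), grouped by role. The dotted line is the mean of the rat array medians. Class 3 semaphorins other than Sema3b, both neuropilins and Slit3 lie far apart, with rat ES cells lower, while Ntn1 and Unc5cl lie apart with rat ES cells higher.

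By role, 8 of 21 ligand genes were called lower and 2 higher, and 8 of 15 receptor genes were called lower and 0 higher in limma. At an unadjusted p under 0.05, 3 receptors (Plxna3, Robo4 and Plxnb3) were higher by less than 2-fold. The receptors' median log2 difference was -1.22, against -0.16 for the ligands. Called lower were 53.3% of the receptors and 38.1% of the ligands, against 10.1% of all genes. Differences ran from -3.79 to 0.97 in the receptors and from -4.29 to 2.29 in the ligands. The medians are thus not read as a larger decrease of the receptors. Of the 16 members called lower, 11 had a rat ES mean under the array median, while none of the 16 did in fibroblasts. The sizes of those 11 decreases are thus uncertain. Of the 19 members not called, 10 lay under the array medians in both groups, and for these a weak probe set cannot be told from a gene that is off.

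Class 3 semaphorins held 5 of the 16 decreases. Sema3c, a cue for cells of the cardiac outflow tract, had signals of 5.16, 5.17 and 5.25 in rat ES cells, against 9.46, 9.55 and 9.43 in fibroblasts. The groups lay far apart, at 19.5-fold (log2 difference -4.29, SE 0.07, limma adjusted p = 2.25e-09), and the rat ES signals lay under the array median. Sema3d had 3.70, 4.19 and 3.94 in rat ES cells, against 8.10, 8.13 and 7.89 in fibroblasts. Its difference of -4.10 (SE 0.13, limma adjusted p = 3.48e-08) came with rat ES arrays that varied more than those of Sema3c. Sema3a, the classic axon repellent that acts through Nrp1, had 3.94, 4.20 and 4.33 in rat ES cells, against 8.05, 7.97 and 7.74 in fibroblasts. It fell by 3.76 on the log2 scale (SE 0.12, limma adjusted p = 4.23e-08). Sema3e differs from the others in that it can bind plexin D1 without a neuropilin. It had 5.33, 5.39 and 5.40 in rat ES cells, against 9.13, 9.09 and 9.12 in fibroblasts, a difference of -3.74 (SE 0.06, limma adjusted p = 2.86e-09).

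Sema3f, which prefers Nrp2, had 5.99, 6.08 and 6.38 in rat ES cells, against 9.08, 9.02 and 9.04 in fibroblasts. Its difference was -2.90 (SE 0.10, limma adjusted p = 7.09e-08), and it was the class 3 member with a decrease whose rat ES signals stayed above the array median. Sema3b was the sixth measured member and did not follow the others. It had 6.43, 6.96 and 7.27 in rat ES cells, against 6.06, 5.97 and 6.14 in fibroblasts. The arrays did not overlap, but at a log2 difference of 0.83 (limma adjusted p = 0.00456) Sema3b missed the 2-fold limit, and its rat ES arrays had the widest spread of all 38 members (SD 0.424, n = 3). Without rat ES array 1 it was called, at 1.06.

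Sema3c, Sema3e, Sema3a and Sema3d lie on rat chromosome 4 in that order in the RefSeq gene table (assembly GRCr8), with Sema3a and Sema3d as direct neighbours. All 4 were called lower. Between Sema3c and Sema3d the table lists 16 other protein-coding genes, of which 3 were measured and the rest were not analysed here. Cacna2d1, a calcium channel subunit gene, was called lower as well (4.21 in rat ES cells, 8.69 in fibroblasts, log2 difference -4.48, limma adjusted p = 6.76e-09). The growth factor gene Hgf (3.22 and 3.16) and the synaptic gene Pclo (4.18 and 4.45) were not called and lay under the array medians in both groups. On chromosome 8, Sema3b and Sema3f stand on either side of 3 other genes. Of these Slc38a3, an amino acid transporter gene, was called higher (2.53) and Gnai2 (-0.14) and Gnat1 (-0.28) were not called.

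**Figure D2:**
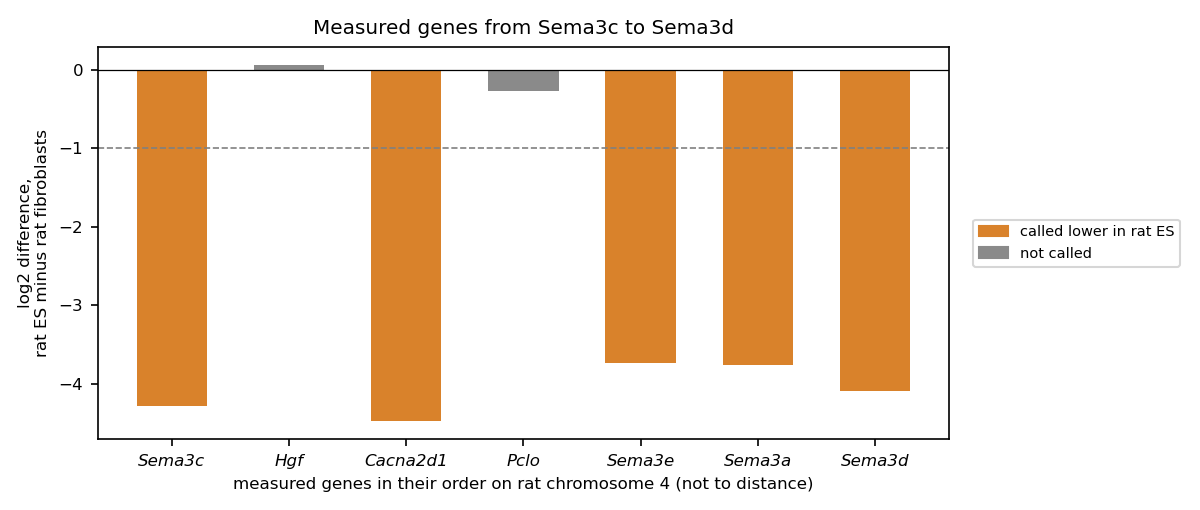
Log2 difference, rat ES minus rat fibroblasts, for the 7 measured genes from Sema3c to Sema3d, drawn in chromosomal order and not to distance. The dashed line marks a 2-fold decrease. The 4 semaphorins and Cacna2d1 lie between -3.74 and -4.48, and Hgf and Pclo lie at 0.06 and -0.27.

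The 250 bases before the annotated start, from the RefSeq promoter table (GRCr8), are shown for neighbouring class 3 semaphorins and for their co-receptors, since these genes fell together. Sema3a is missing from them because no window was found for it. Each is given 5′ to 3′ on the gene's own strand, and capitals mark an SP1 site (GGGCGG, either strand). They lie at chr4:18699628-18699877, minus strand, for Sema3c, chr4:21510375-21510624, minus strand, for Sema3e, chr4:23460972-23461221, minus strand, for Sema3d, chr19:73256307-73256556, plus strand, for Nrp1, and chr9:71617004-71617253, plus strand, for Nrp2.
Sema3c: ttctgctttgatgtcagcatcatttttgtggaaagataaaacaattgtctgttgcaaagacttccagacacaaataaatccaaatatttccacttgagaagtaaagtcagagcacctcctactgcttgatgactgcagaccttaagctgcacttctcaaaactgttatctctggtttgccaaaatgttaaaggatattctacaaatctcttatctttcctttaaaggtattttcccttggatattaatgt
Sema3e: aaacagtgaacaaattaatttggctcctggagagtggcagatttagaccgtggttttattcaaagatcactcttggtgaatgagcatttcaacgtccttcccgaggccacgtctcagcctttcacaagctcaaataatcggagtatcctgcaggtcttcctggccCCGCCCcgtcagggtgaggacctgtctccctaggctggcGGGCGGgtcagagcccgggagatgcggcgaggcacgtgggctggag
Sema3d: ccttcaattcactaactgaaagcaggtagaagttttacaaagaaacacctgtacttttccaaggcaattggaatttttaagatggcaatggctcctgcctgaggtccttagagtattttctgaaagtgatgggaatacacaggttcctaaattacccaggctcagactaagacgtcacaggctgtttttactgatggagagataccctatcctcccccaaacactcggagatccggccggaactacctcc
Nrp1: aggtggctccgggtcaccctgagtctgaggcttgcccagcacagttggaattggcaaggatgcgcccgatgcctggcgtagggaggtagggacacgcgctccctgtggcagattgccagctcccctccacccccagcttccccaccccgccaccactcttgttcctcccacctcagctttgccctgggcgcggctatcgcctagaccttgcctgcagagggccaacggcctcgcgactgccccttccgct
Nrp2: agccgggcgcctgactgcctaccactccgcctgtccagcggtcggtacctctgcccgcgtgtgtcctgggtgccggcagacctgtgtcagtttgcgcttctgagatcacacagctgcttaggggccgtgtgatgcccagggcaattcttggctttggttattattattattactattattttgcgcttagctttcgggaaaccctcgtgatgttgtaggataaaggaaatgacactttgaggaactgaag
The 5 windows are unlike in composition. G and C made up 35.2% of the Sema3c window, 55.6% for Sema3e, 44.8% for Sema3d, 66.4% for Nrp1 and 52.8% for Nrp2. The Sema3c window held no CG pair, whereas those of Sema3e and Nrp2 held 13 each and that of Nrp1 held 14. SP1 sites were found only in the Sema3e window among these 5, starting at -85 and -46 from the start.

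Promoter windows were found for 30 of the 38 members, with 31 windows because Robo1 has a pair. The 5 motifs searched on both strands were SP1 (GGGCGG), the TATA box (TATAAA), AP-1 (TGANTCA), TEAD (GGAATG) and the octamer (ATGCAAAT), and none of them contains another, though the ends of GGAATG and of the octamer can overlap. SP1 letters stood in 17 of 31 member windows (54.8%), against 30.5% of 33469 windows of all genes. They stood in 7 of 13 windows of members called lower (53.8%) and in 9 of 16 windows of members not called (56.2%). TATAAA, the AP-1 letters and the octamer were in 0 of 31 member windows, against 12.9%, 6.34% and 1.56% of all windows. GGAATG was in 2 member windows, those of Sema4f and Ntn3, against 12.1% of all windows. The median member window held 61.6% G and C, against 51.2% for all windows. These are matches of letters only.

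Among the membrane semaphorins, differences were smaller and went both ways. Sema7a, a lipid-anchored semaphorin that binds integrin beta 1 and plexin C1, had 6.06, 6.17 and 6.39 in rat ES cells, against 8.13, 7.96 and 7.96 in fibroblasts. It fell by 1.82 on the log2 scale (limma adjusted p = 7.94e-07). Sema4g had 5.42, 5.27 and 5.17 in rat ES cells, under the array median, against 6.69, 6.74 and 6.70 in fibroblasts, and fell by 1.42. Sema4f had 6.12, 6.47 and 6.38 in rat ES cells, against 5.16, 5.19 and 5.09 in fibroblasts. It was higher by 1.18 (SE 0.10, limma adjusted p = 1.03e-05), the smallest difference among the called members. The fibroblast signals of Sema4f lay under the array median. Sema4a (-0.17) and Sema4c (-0.16) had overlapping arrays and were not called, and both Sema4c probe sets gave close values (-0.16 and -0.18). Of the 6 semaphorins of classes 5 to 7, Sema7a was called. The other 5 ranged from -0.04 to 0.69, and Sema5a (0.55), Sema5b (0.69) and Sema6b (0.32) reached an adjusted p under 0.05 at less than 2-fold.

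The neuropilins, co-receptors for class 3 semaphorins and for VEGF, were both lower in rat ES cells. Nrp2 had 5.60, 4.99 and 5.49 in rat ES cells, against 9.15, 9.15 and 9.15 in fibroblasts. It was 13.9-fold lower in rat ES cells (-3.79 on the log2 scale, SE 0.15, limma adjusted p = 1.08e-07). Nrp1 had 5.03, 4.45 and 4.76 in rat ES cells, against 7.52, 7.47 and 7.34 in fibroblasts, a difference of -2.70 (SE 0.14, limma adjusted p = 5.52e-07). Both genes lay under the array median on every rat ES array.

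The plexins, which pass the semaphorin signal into the cell, were called lower in 2 of 5 cases. Plxnb2, a receptor for class 4 semaphorins, had 8.48, 8.57 and 8.56 in rat ES cells, against 10.21, 10.29 and 10.22 in fibroblasts. It fell by 1.70 (SE 0.06, limma adjusted p = 1.04e-07) but stayed well above the array median in rat ES cells. Plxnd1, the receptor of Sema3e, had 5.54, 5.41 and 5.28 in rat ES cells, against 6.59, 6.64 and 6.66 in fibroblasts. It fell by 1.22 (limma adjusted p = 2.60e-06), to signals under the array median. The class A plexins Plxna2 and Plxna3, partners of the neuropilins, missed the 2-fold limit narrowly, on opposite sides of 0. Plxna2 had 6.02, 6.08 and 5.90 in rat ES cells, against 6.90, 6.95 and 6.92 in fibroblasts (log2 difference -0.92). Plxna3 had 7.41, 7.35 and 7.36 in rat ES cells, against 6.42, 6.30 and 6.50 in fibroblasts (log2 difference 0.97). Both had adjusted p values under 0.05 in limma (6.33e-06 and 5.92e-06), and Plxna3 was called, at 1.01, without fibroblast array 3. Plxnb3 differed by 0.39 with overlapping arrays, under the array median in both groups.

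**Figure D3:**
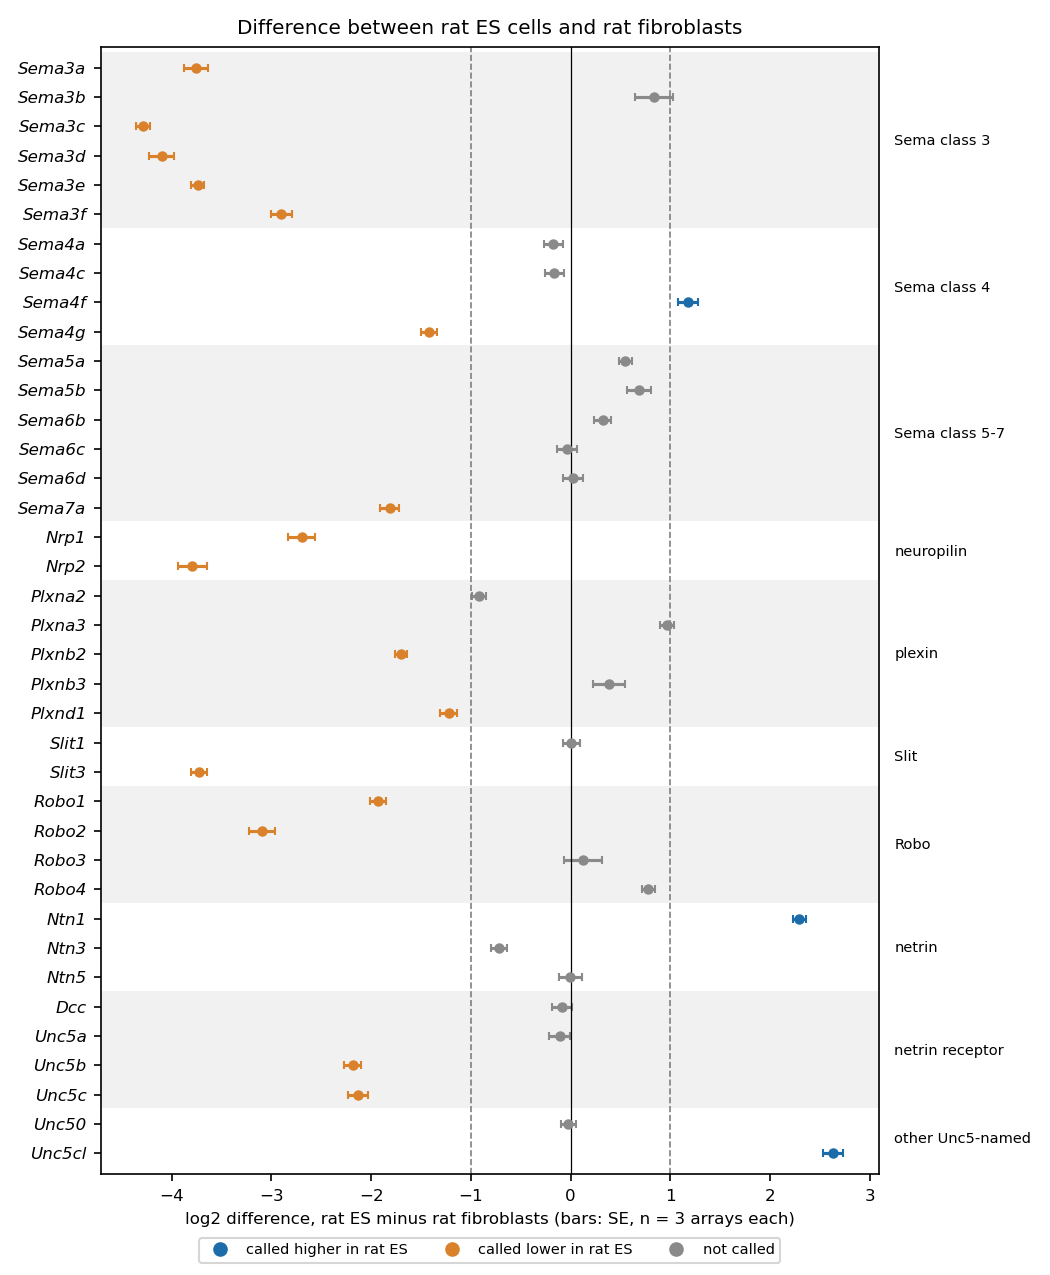
Log2 difference, rat ES minus rat fibroblasts, for the 38 guidance genes. Bars are the moderated SE of the difference from limma, with 3 arrays per group. Dashed lines mark 2-fold. The 16 genes called lower (orange) reach -4.29 at Sema3c, and the 3 called higher (blue) are Unc5cl, Ntn1 and Sema4f.

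Of the Slit ligands, Slit3 had 5.57, 5.75 and 5.62 in rat ES cells, against 9.45, 9.37 and 9.31 in fibroblasts. It was 13.2-fold lower (log2 difference -3.73, SE 0.08, limma adjusted p = 5.28e-09). The rat ES mean of Slit3 (5.65) lay under the array median, so the size is uncertain. Slit1, at means of 4.59 in rat ES cells and 4.58 in fibroblasts, was under the array median in both groups and differed by 0.01. The receptors Robo1 and Robo2, which are near neighbours on rat chromosome 11, were both lower in rat ES cells. Robo2 had 4.60, 5.08 and 5.02 in rat ES cells, against 8.03, 8.07 and 7.89 in fibroblasts (a difference of -3.10, SE 0.13, with a limma adjusted p = 1.63e-07). The rat ES signals of Robo2 lay under the array median. Robo1 fell by 1.93, with 5.86, 5.68 and 5.95 in rat ES cells, against 7.77, 7.75 and 7.75 in fibroblasts. The other neighbouring pair, Robo3 and Robo4 on chromosome 8, was not called. Robo4, known from endothelium, had 5.48, 5.46 and 5.34 in rat ES cells, against 4.65, 4.64 and 4.66 in fibroblasts. Its difference of 0.78 (limma adjusted p = 1.25e-05) was under 2-fold, and its signals lay under the array median in both groups. Robo3 differed by 0.12 with overlapping arrays.

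The netrin-1 gene was higher in rat ES cells, while 3 of its receptor genes, Unc5b, Unc5c and Neo1, were lower. Ntn1 had 8.76, 8.69 and 8.78 in rat ES cells, against 6.41, 6.47 and 6.47 in fibroblasts, above the array medians in both groups. It was 4.90-fold higher in rat ES cells (log2 difference 2.29, SE 0.06, limma adjusted p = 2.01e-08). Ntn3 went the other way at less than 2-fold (-0.72, limma adjusted p = 7.47e-05), and Ntn5 lay under the median in both groups (difference -0.00). The netrin receptor gene Unc5b had 7.50, 7.57 and 7.70 in rat ES cells, against 9.71, 9.88 and 9.74 in fibroblasts. It fell by 2.19 (SE 0.08, limma adjusted p = 9.00e-08), and its rat ES signals stayed above the array median. Unc5c had 5.48, 5.26 and 5.18 in rat ES cells, against 7.48, 7.55 and 7.29 in fibroblasts, and fell by 2.13 (SE 0.10, limma adjusted p = 3.86e-07). The rat ES signals of Unc5c lay under the array median. Dcc (-0.09) and Unc5a (-0.11) had overlapping arrays under the array median in both groups. Neogenin (Neo1), a further netrin receptor outside the symbol rule, was called lower, at means of 7.69 in rat ES cells and 9.01 in fibroblasts (log2 difference -1.31, limma adjusted p = 5.89e-07).

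Outside these roles, Unc5cl had 7.45, 7.46 and 7.53 in rat ES cells, against 5.02, 4.62 and 4.91 in fibroblasts. Its increase of 2.63 (SE 0.10, limma adjusted p = 1.30e-07) was the largest of the 3, over fibroblast signals under the array median. Unc50, at means of 7.80 in rat ES cells and 7.82 in fibroblasts, was above the median in both groups with overlapping arrays (difference -0.02).

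The 16 members called lower were compared between single rat ES arrays, since the fibroblast markers differed among those arrays. On array 3 of the rat ES cells, 11 of the 16 had a higher signal than on array 1, with a median difference of 0.09 (log2). Array 2 was higher than array 1 in 10 of the 16 (median 0.07), and array 3 than array 2 in 9 (median 0.05). The shares over all genes were not computed, so these counts are not read as a result about the members. Each of the 16 was still called when any 1 of the 6 rat arrays was left out.

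Partners and effectors of the guidance receptors were read from a list of 56 genes, of which 47 were measured. Of these 14 were called lower in rat ES cells (29.8%, against 10.1% of all genes tested) and 5 higher (10.6%, the same share as over all genes). The median log2 difference was -0.34, and over all genes it was -0.00. Among the decreases was Flrt2, whose product binds Unc5 receptors, with 4.40, 4.41 and 4.69 in rat ES cells, against 9.38, 9.45 and 9.27 in fibroblasts (log2 difference -4.86, limma adjusted p = 4.77e-09). Dpysl3, of the collapsin response mediator family that relays semaphorin signals, differed by -4.85, Rnd3 by -3.42 and Met, whose product can associate with B plexins, by -3.25. In rat ES cells Flrt2, Dpysl3 and Met lay under the array median, so the sizes and order of these differences are uncertain. Itgb1, the integrin partner of Sema7a, differed by -2.52. The increases were in Ablim1, Rgma, Dpysl5, Dpysl4 and Arhgap39. Ablim1, an actin-binding protein gene whose relative in Caenorhabditis elegans is needed in axon guidance, had 10.93, 10.93 and 10.90 in rat ES cells, against 7.07, 7.01 and 7.01 in fibroblasts (log2 difference 3.89, limma adjusted p = 2.21e-09). Rgma, which encodes a ligand of neogenin, differed by 2.24, Dpysl5 by 2.13, Dpysl4 by 1.43 and Arhgap39, a GTPase-activating protein gene known from the Robo pathway of the fly, by 1.12. Within the collapsin response mediator family, Dpysl2 (-1.44) and Dpysl3 were thus lower, Dpysl4 and Dpysl5 higher, and Crmp1 (-0.58) was not called.

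**Figure D4:**
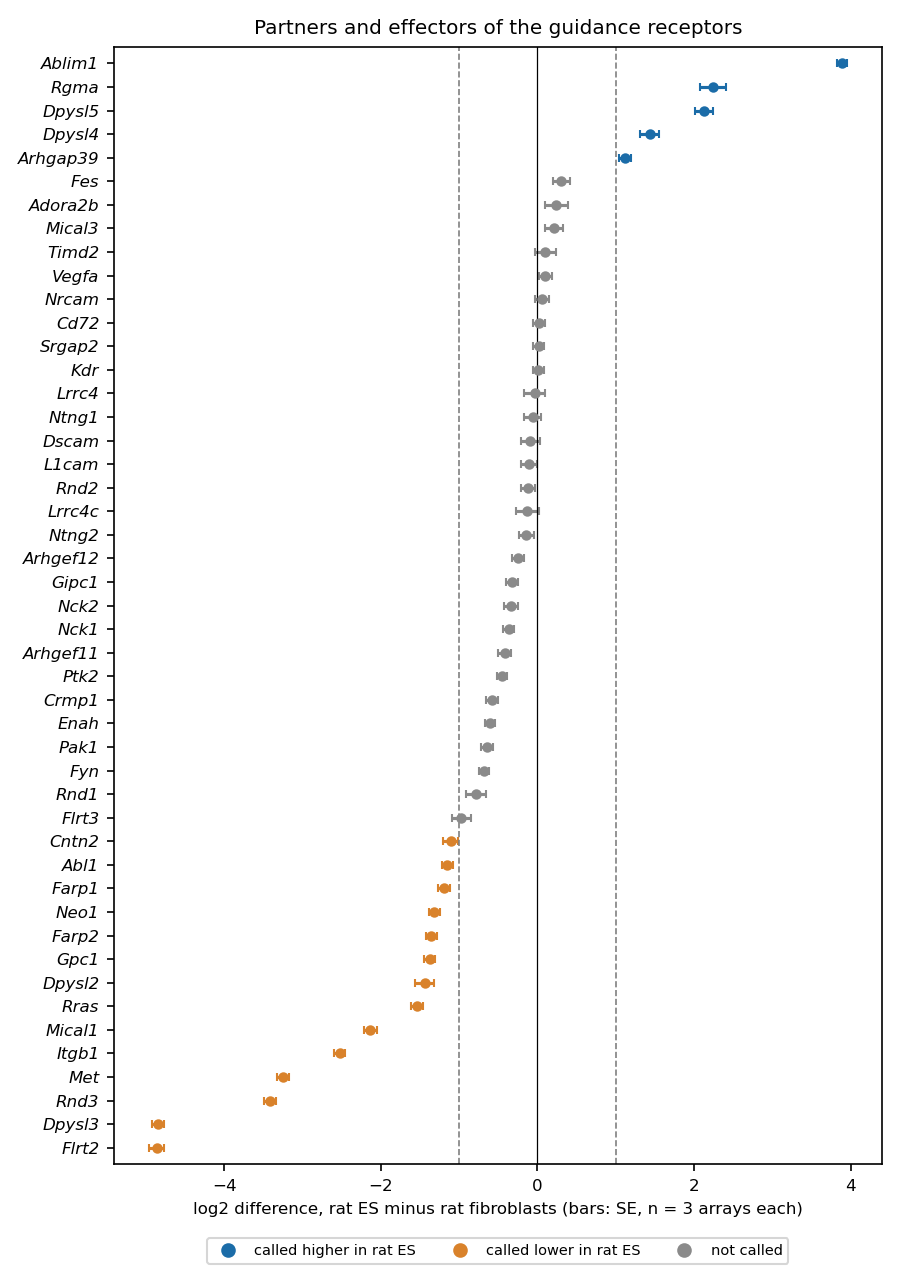
Log2 difference, rat ES minus rat fibroblasts, for 47 measured partners and effectors of the guidance receptors. Bars are the moderated SE of the difference from limma, with 3 arrays per group. Dashed lines mark 2-fold. Ablim1 lies highest at 3.89 and Flrt2 lowest at -4.86.

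Rat ES cells were then set beside mouse ES cells. The platforms were normalized apart, so each gene was given its percentile within an array among the 12114 symbols in both tables. A percentile also depends on how brightly a probe set responds, and species, platform and medium differed together. For 33 of the 49 mouse members the deposited value was identical on all 3 mouse arrays. Over the whole mouse platform this held for 15447 of 35557 probe sets, so it is not particular to the members. The mouse spread is thus not a measure of replicate error and no SD is given. Whether the 3 mouse arrays are independent measurements was not tested. The arrays of rat ES and mouse ES cells did not overlap in 31 of 38 members, and in 87.4% of all shared symbols, so this count is not read as a result about the members.

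The median member stood at the 32.0th percentile in rat ES cells, the 33.4th in mouse ES cells and the 49.4th in rat fibroblasts. At or above the 50th percentile were 9 members in rat ES cells, 10 in mouse ES cells and 19 in rat fibroblasts. Ranked among all named genes of each table instead, the counts were 10, 17 and 23 in the same order. The 5 members at or above it in both kinds of ES cell were Sema4c, Plxnb2, Ntn1, Unc5b and Unc50. Another 24 were below it in both. Of the 38 members, 19 lay within 10 percentile points of each other in rat ES and mouse ES cells. The share over all shared symbols was not computed, so that count is not read as a result about the members. Among the 16 members called lower in rat ES cells, 13 had a mouse ES percentile closer to that of rat ES cells than to that of fibroblasts. Over all 1385 shared genes called lower the share was 74.3%, so this count is not read as a result about the members. Of the 3 members called higher, 1 (Ntn1) was closer to rat ES cells, and over all shared genes called higher the share was 59.0%.

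**Figure D5:**
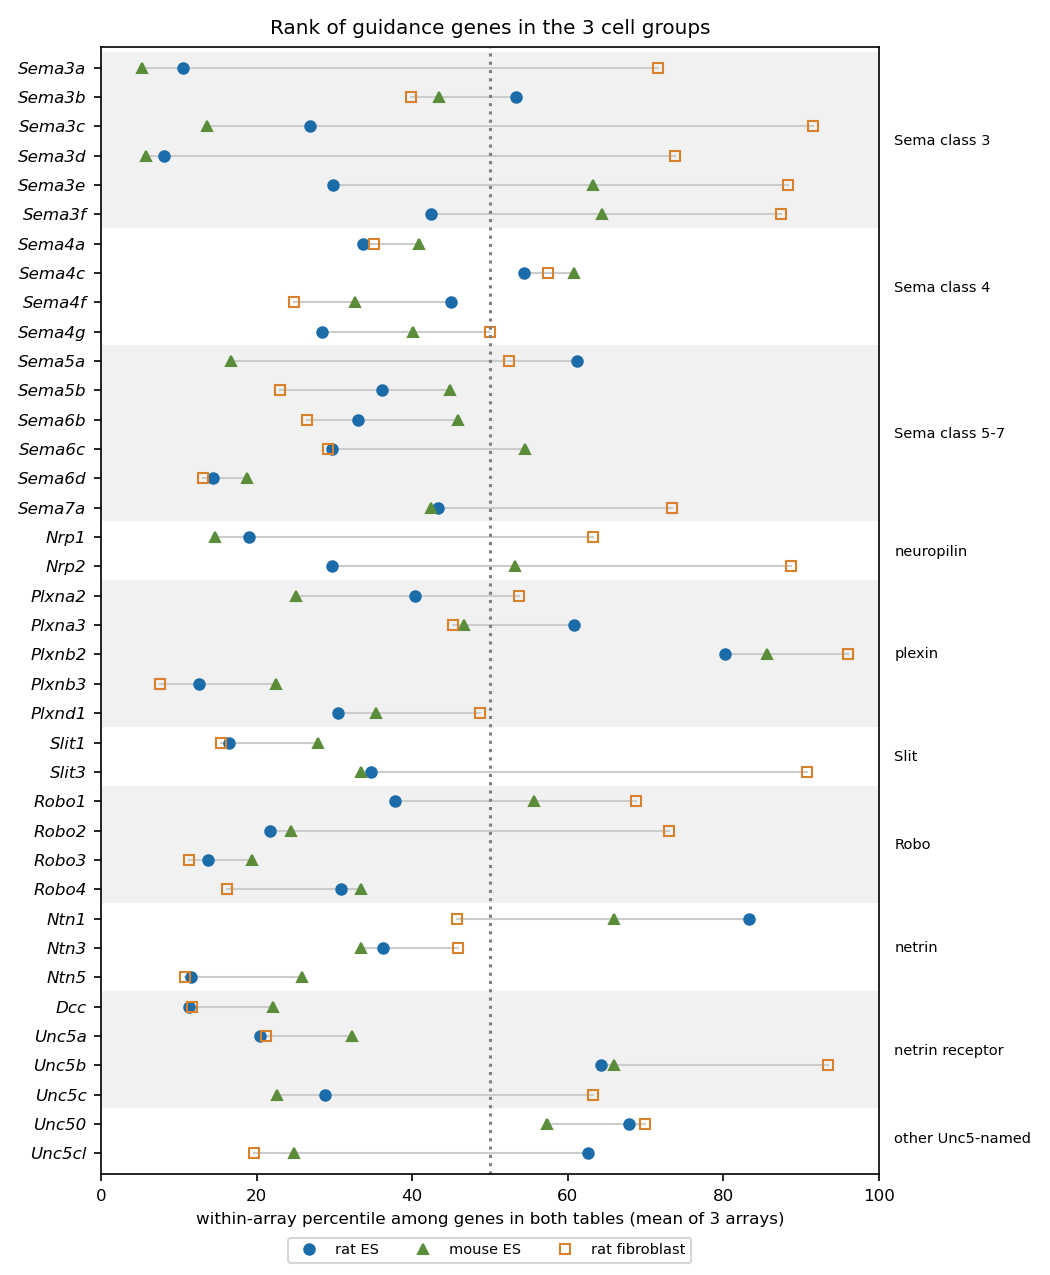
Percentile of each of the 38 guidance genes among genes in both tables, as the mean of 3 arrays, in rat ES cells (circles), mouse ES cells (triangles) and rat fibroblasts (squares). The dotted line is the 50th percentile. Sema3a, Sema3d, Nrp1, Robo2 and Slit3 lie under the 50th percentile in both kinds of ES cell. Sema3e and Nrp2 lie between the rat groups in mouse ES cells.

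Several cues that were low in rat ES cells were also low in mouse ES cells. Sema3a stood at the 10.5th percentile in rat ES cells, the 5.30th in mouse ES cells and the 71.6th in fibroblasts. Sema3d stood at 8.13 in rat ES cells, 5.77 in mouse ES cells and 73.7 in fibroblasts, and Sema3c at 26.8, 13.6 and 91.5 in the same order. Slit3 stood at 34.8 in rat ES cells, 33.4 in mouse ES cells and 90.7 in fibroblasts. The mouse signal of Slit3, 4.94 on each array, lay above the mouse array medians. Robo2 followed at 21.7 in rat ES cells, 24.4 in mouse ES cells and 73.0 in fibroblasts. Unc5b kept a high rank in all 3 groups, at 64.3 in rat ES cells, 66.0 in mouse ES cells and 93.5 in fibroblasts, as did Plxnb2, at 80.2, 85.7 and 96.0 in the same order.

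Other members ranked differently in the ES cells of the species. Sema5a stood 44.6 percentile points higher in rat ES cells (61.2) than in mouse ES cells (16.7), and Unc5cl 37.8 points higher (62.6 against 24.8). Ntn1 stood 17.4 points higher in rat ES cells (83.3) than in mouse ES cells (65.9), with fibroblasts at 45.8. Plxna2 was 15.3 points and Plxna3 14.1 points higher in rat ES cells. Ranked among all named genes of each table, Sema5a differed by 38.2 points and Unc5cl by 30.6. On that base the differences were 11.0 points for Ntn1, 10.4 for Plxna2 and 7.88 for Plxna3. In the other direction, Sema3e stood 33.4 points lower in rat ES cells (29.8) than in mouse ES cells (63.3). Nrp2 stood at 29.7 in rat ES cells and 53.2 in mouse ES cells. Sema6c stood 24.7 points lower in rat ES cells, Sema3f 22.0 and Robo1 17.9. Among all named genes, rat ES minus mouse ES was -34.8 for Sema3e, -26.1 for Nrp2 and -27.15 for Sema6c. It was -24.2 for Sema3f and -20.8 for Robo1. Each of the differences named here thus moved the same way with this base. Deposited mouse signals were 6.72, 6.51 and 6.72 for Sema3e and 6.05 on each array for Nrp2, above the mouse array medians, whereas the rat ES signals of both genes lay under the rat medians. For Sema5a the mouse signal was 3.91 on each array, under the mouse median, and the rat ES signals were 7.34, 7.42 and 7.44. These differences are descriptions, with no test. In rat fibroblasts Sema3e stood at 88.3, Nrp2 at 88.7, Sema3f at 87.5, Robo1 at 68.8 and Sema6c at 29.2. Sema5a stood there at 52.4, Plxna2 at 53.8, Plxna3 at 45.2 and Unc5cl at 19.6. For Sema5a and Plxna2 both rat groups thus stood above mouse ES cells (16.7 and 25.1), so these differences are not particular to rat ES cells. All 8 fibroblast markers were measured in mouse ES cells, and 2 of them lay under the mouse array median. The part of fibroblast RNA in these ranks was not tested.

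The mouse table held 11 more members that were not analysed here in the rat. Plxna1, a further neuropilin partner, had 8.90 on each mouse array and ranked at 94.7 among all named mouse genes. Sema4b (8.16 on each array) ranked at 89.7, Sema6a (7.72, 7.59 and 7.72) at 85.0, Plxnb1 (7.18 on each) at 79.2 and Sema4d (6.96 on each) at 76.2. The other 6, Ntn4, Plxna4, Sema3g, Slit2, Unc5d and Plxnc1, ranked from 42.2 at Plxna4 down to 21.7 at Plxnc1. Of all 49 mouse members, 19 lay under the mouse array medians.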

How the data were processed

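The values deposited by the authors are on a log2 scale, with 1 per probe set, in a rat table of 6 arrays and a mouse table of 3; the scale was read from their range, and the normalization, the probe summary and the genome build were each not given in the sources used here. Per the labels' protocols, biotin-labelled DNA made from total RNA was hybridized, 1 sample per array. Genes were named by the platform annotation. Of 29215 rat probe sets, 15310 had 1 symbol, 323 several and 13582 none listed; of 35557 mouse probe sets, 21789, 1621 and 12147. Where a symbol had several probe sets, that of highest mean was kept. The rat comparison used lmFit and eBayes of limma 3.58.1 (R 4.3.3) with no level filter, tested on simulated data. Each SE given is the moderated SE of the difference from this fit. Deviations of same-numbered arrays correlated at -0.00044, 0.031 and -0.0003 between rat groups, so numbers were not treated as pairs.

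Members and lists were chosen with earlier results of these data known. Named with array values are the 6 highest and 6 lowest signed differences among called members. Also named are all other called members, those near 2-fold, all receptors, the 5 largest and 5 smallest percentile differences whose arrays do not overlap, and the 4 largest and smallest called pathway genes. Members and pathway genes beyond these, and the chromosomal neighbours, were named after their values were seen. Alternatives were quantile normalization, median centring, level filters, the mean of all probe sets, trend and robust eBayes, other thresholds, the replicate block, all named genes as the percentile base and leaving out each array. RefSeq (GRCr8) held 14480 of 14506 rat gene IDs.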

Additional observations from a re-analysis of the deposited data

How the results depend on the processing

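The count of members called lower in rat ES cells was 16 under each alternative except a pair. The filter at the median of mean level left 17 members tested, with 10 lower and 1 higher. Level filters used the mean over both rat groups, so a member could pass through 1 high group alone. Without a fold threshold, 18 members were lower and 9 higher. Leaving out each array in turn gave 16 lower in every case and 3 to 4 higher. The median log2 difference of the members, -0.17, was -0.15 after quantile normalization, -1.07 with the filter at the 25th percentile (32 members tested), -1.82 with that at the median, -0.45 without Unc50 and Unc5cl (an alternative chosen after seeing the data), and -0.25 to -0.12 when an array was left out. Robo3, which was not called, ranged between -0.077 (without rat ES array 3) and 0.24 (without rat ES array 2), and was -0.037 without fibroblast array 1. With the replicate number as a block, 16 members were called lower and 3 higher, and it changed no call. Ranked among all named genes of its table, 17 members stood at or above the 50th percentile in mouse ES cells instead of 10, and the cause was not tested. Leaving out each array gave 9 members there in rat ES cells, 10 in mouse ES cells and 18 to 19 in fibroblasts. For the mouse arrays this shows little, because 33 of the 49 mouse members had the same value on all 3. The mouse count could thus hardly change. With 3 arrays per group, signals under the array medians limit what these values show.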
